A study of Mus musculus with 3 samples.

Results

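Genes of tissue-resident macrophages, 33 in number, were followed in peripheral blood G-MDSCs during tumor progression, from the peritoneal macrophage factor Gata6 to complement C1q, scavenger receptors and receptors of dying cells. The 33 genes were chosen from the values of these same libraries, in which macrophage genes had been seen to be lower in tumor-bearing mice, so their direction is a description and not independent evidence. They are 33 of the 26655 genes with a value. They comprise 11 genes of large peritoneal macrophages, 3 chains of C1q, 8 scavenger, lectin and complement receptors, 2 receptors of apoptotic cells and 9 other macrophage genes.

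RNA-seq was performed on G-MDSCs of 3 libraries, 1 from normal mice without tumor, 1 taken 2 weeks into the growth of B16F10 tumors (2Ws) and 1 taken at 3 weeks (3Ws). All mice were C57BL/6J, stated to be 8 to 10 weeks old, with no genetic change named, and B16F10 is a melanoma line of this strain that was placed under the skin. The cells are labelled as CD11b+Gr1+ cells of peripheral blood and were picked magnetically through Ly6G, and the number of mice pooled in a library is not given in the sources used here. Some labels give the tumor times in months, and the weeks of the other labels and of the methods are used here. G-MDSCs are granulocytic myeloid-derived suppressor cells, neutrophil-like cells that dampen T-cell responses in tumor-bearing animals.

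Resident macrophages settle in tissues, clear dying cells and foreign particles there, and are not expected among blood granulocytes in large numbers. Large peritoneal macrophages depend on GATA6, carry the phosphatidylserine receptor TIM-4 and make factors of coagulation and lipid oxidation. Other resident macrophages are known for hemoglobin, mannose and hyaluronan receptors and for the C1q complex, which starts the classical complement cascade.

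The deposited values are FPKM, fragments scaled to transcript length and library size, so levels of different genes are compared per length. With 1 library per condition there is no replicate check and no p-value. A gene was counted as lower or higher when it reached 1 FPKM in 1 of the 2 libraries compared and its FPKM plus a pseudocount of 1 differed by at least 2-fold, and log2 ratios below are on that scale. Percentages of the normal library are ratios of FPKM without a pseudocount, and their exact Clopper-Pearson 95% intervals come from the reads behind each value, which follow from FPKM, exon length and library size. They cover counting error only. The recovered totals were 17325747 reads in the normal library, 16549246 at 2Ws and 17075753 at 3Ws. Read numbers of Gata6, Adgre1 and Ednrb did not come out whole and are approximate.

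The 2Ws library stood apart from the others in its sex-linked transcripts. Xist, the RNA of the silent X chromosome, had 0.00966 FPKM in the normal library, 24.7 at 2Ws and 0 at 3Ws. The Y-linked gene Eif2s3y had 33.8 FPKM in the normal library, 0 at 2Ws and 36.8 at 3Ws, although the methods name female mice. Tumor time and sex of the animals therefore cannot be told apart in comparisons with the 2Ws library, whereas the 3Ws and normal libraries share their Y-linked transcripts. All comparisons also share libraries with each other, and their values are given side by side.

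At 2Ws 7 of the 33 genes were lower than in normal mice, and they were Marco, Mrc1, Cd163, Lyve1, Siglec1, Axl and Cbr2. Among all 11269 genes compared 1.22% were lower and 1.29% higher, and 0 of the 33 genes were higher. The median log2 ratio of the 33 genes was −0.27, against 0.00 over all genes compared. At 3Ws 27 of the 33 genes were lower than in normal mice and 0 were higher, beside 7.89% lower and 2.60% higher among 11103 genes. Their median log2 ratio was −1.52, against −0.24 over all genes compared, and the interval of the percentage of normal lay below 100 for each of the 33. By the ratio alone, without an interval, 70.2% of all genes compared were below the normal library at 3Ws. Among genes with at least 50 reads in any library 0.447% were lower at 2Ws and 7.14% at 3Ws. Since the genes were chosen from these contrasts, their counts describe the choice. With ratios centred on the median, 24 of the 33 genes were lower at 3Ws and 553 of all genes were lower and 416 higher, against 876 lower and 289 higher without centring.

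**Figure D1:**
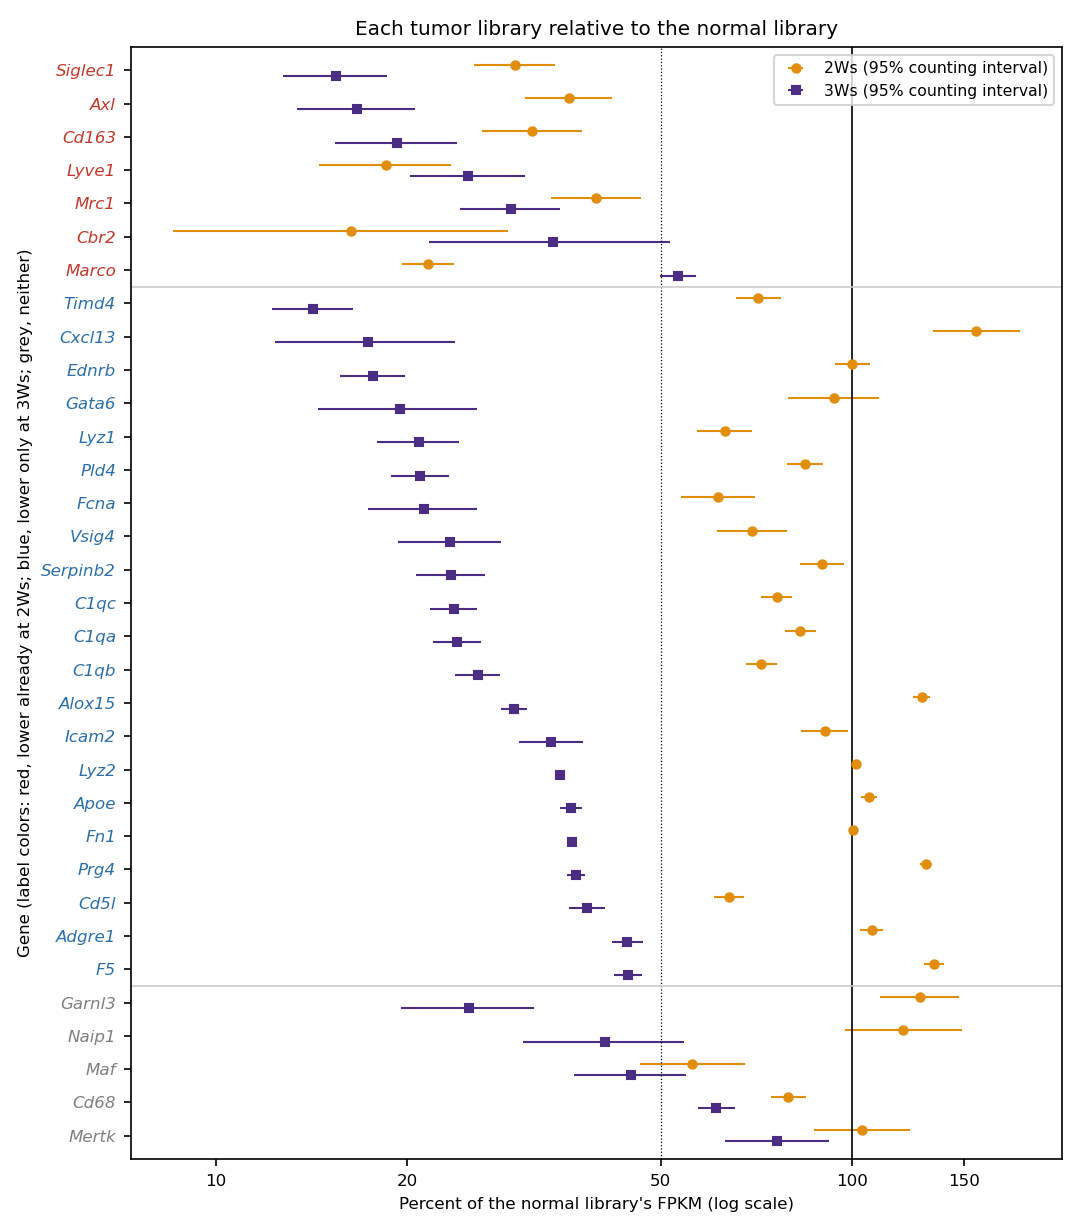
FPKM of each macrophage gene at 2Ws (circles) and at 3Ws (squares) as a percentage of the normal library, on a log axis, with 95% counting intervals as bars, a solid line at 100 and a dotted line at 50. Red names are genes lower already at 2Ws, blue names genes lower only at 3Ws and grey names neither; Marco is at 21.6% at 2Ws and 53.3% at 3Ws, and Timd4 at 71.2% at 2Ws and 14.2% at 3Ws.

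The genes thus divided into 7 that were lower already at 2Ws, 21 that were lower only at 3Ws and 5 that were neither, namely Garnl3, Naip1, Cd68, Mertk and Maf. Close to the 2-fold limit at 2Ws, Mrc1 lay just inside with a log2 ratio of −1.01. The nearest gene outside the limit at 2Ws was Fcna with −0.66, at 61.6% of normal. At 3Ws, Cbr2 with −1.08 and F5 with −1.13 lay just inside, and Garnl3 with −0.91 and Marco with −0.89 just outside. Garnl3, Naip1 and Maf were low in every library, where the pseudocount shrinks the ratio, and Garnl3 at 3Ws was at 25.0% of normal without it (95% interval 19.6 to 31.7).

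None of the 11 genes of large peritoneal macrophages was lower at 2Ws, and 9 of them were lower at 3Ws. Their summed level was 570.3 FPKM in the normal library, 676.1 at 2Ws and 177.6 at 3Ws. Prg4 and Alox15 together made up most of this sum in each library. Gata6, the transcription factor that sets the identity of these cells, lies on chromosome 18 from 11052064 to 11085635 of GRCm38 and had 2.73 FPKM in the normal library, 2.55 at 2Ws and 0.532 at 3Ws. Gata6 was at 93.6% of normal at 2Ws (95% interval 79.2 to 110.3) and at 19.5% at 3Ws (14.5 to 25.8), so that at 2Ws a difference was not detectable at this depth. Timd4, which encodes the phosphatidylserine receptor TIM-4 and lies on chromosome 11 from 46810800 to 46844332, had 39.4 FPKM in the normal library, 28.1 at 2Ws and 5.61 at 3Ws. It had the lowest percentage of normal of all 33 genes at 3Ws, 14.2% (12.2 to 16.4), and was already at 71.2% (65.7 to 77.2) at 2Ws, within the 2-fold limit.

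Several peritoneal macrophage genes were above the normal library at 2Ws and below it at 3Ws. Cxcl13, a chemokine that attracts B cells, had 13.5 FPKM in the normal library, 21.1 at 2Ws and 2.34 at 3Ws. It was at 156.5% of normal at 2Ws (95% interval 133.7 to 183.3) and at 17.4% at 3Ws (12.4 to 23.8), and its level at 3Ws was 11.1% of that at 2Ws, the lowest such percentage of the 33 genes. Prg4, the secreted lubricant lubricin, had 194 FPKM in the normal library, 253 at 2Ws and 71.2 at 3Ws. Alox15, a lipoxygenase that oxidizes membrane lipids, had 183 FPKM in the normal library, 235 at 2Ws and 53.8 at 3Ws, or 129% of normal at 2Ws and 29.4% at 3Ws. F5, coagulation factor V, had 39.7 FPKM in the normal library, 53.3 at 2Ws and 17.6 at 3Ws, so that 44.4% of normal remained at 3Ws. Garnl3, which carries a domain of GTPase activators, had 1.67 FPKM in the normal library, 2.13 at 2Ws and 0.417 at 3Ws and followed the same course at a far lower level.

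The remaining peritoneal macrophage genes were at or below the normal library at 2Ws, except Naip1. Serpinb2, an inhibitor of the protease urokinase, had 33.9 FPKM in the normal library, 30.4 at 2Ws and 7.93 at 3Ws. Icam2, an adhesion molecule shared with endothelial cells and platelets, had 35.9 FPKM in the normal library, 32.5 at 2Ws and 12.1 at 3Ws. Fcna, which encodes ficolin A, a lectin that starts complement activation, had 25.1 FPKM in the normal library, 15.5 at 2Ws and 5.33 at 3Ws, and its percentage of normal at 2Ws, 61.6% (95% interval 53.9 to 70.4), was the lowest of the 11. Naip1, a sensor of bacterial secretion systems, had 1.76 FPKM in the normal library, 2.12 at 2Ws and 0.719 at 3Ws. With the pseudocount it was within 2-fold in both comparisons with normal mice. Without the pseudocount Naip1 was at 40.8% of normal at 3Ws (95% interval 30.3 to 54.4). Its longest transcript is 89.3% identical to that of Naip2, 87.2% to that of Naip5 and 87.7% to that of Naip6, so these genes may share reads. Serpinb2 shares 12.4% of its exon bases with Serpinb10.

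**Figure D2:**
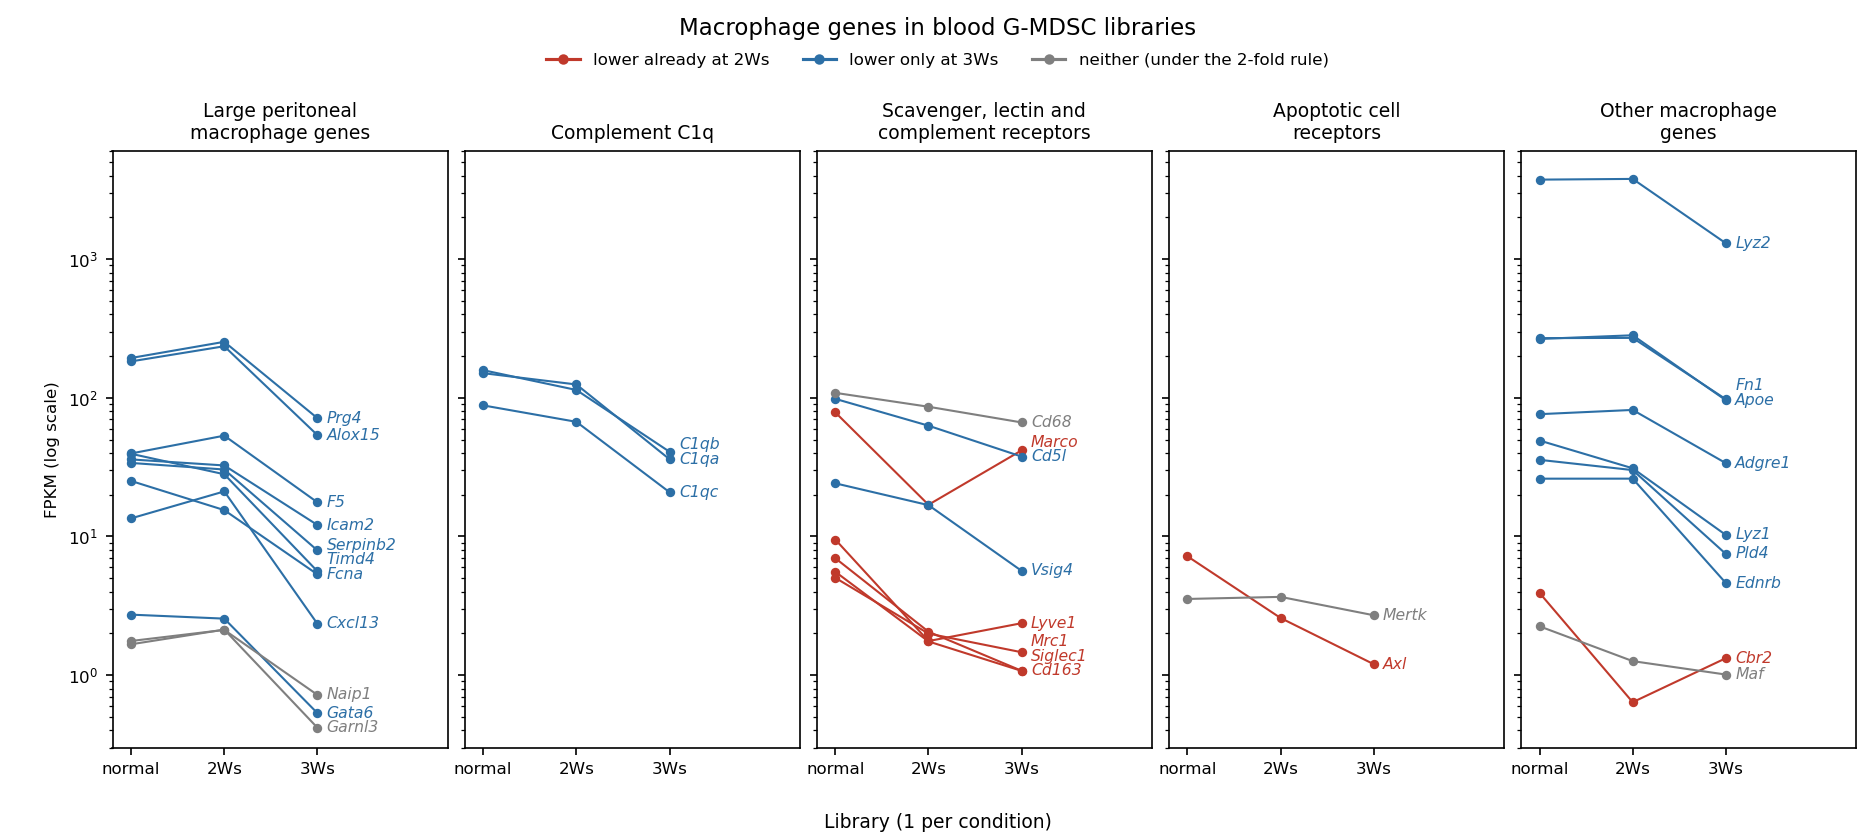
FPKM on a log axis of the 33 macrophage genes in the normal, 2Ws and 3Ws libraries, 1 point per library, in 5 panels by role, with red for genes lower already at 2Ws, blue for genes lower only at 3Ws and grey for neither. Marco, Lyve1 and Cbr2 are lowest at 2Ws, whereas the peritoneal macrophage and C1q genes are lowest at 3Ws.

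The 3 chains of C1q had similar percentages of normal at 3Ws. C1qa, C1qb and C1qc lie next to each other on chromosome 4, between 136880129 and 136898803, and each chain is needed for the complex. C1qa had 150.5 FPKM in the normal library, 125 at 2Ws and 36.0 at 3Ws. C1qb had 158 FPKM in the normal library, 114 at 2Ws and 40.8 at 3Ws, and C1qc 88.1 FPKM in the normal library, 67.1 at 2Ws and 20.8 at 3Ws. At 3Ws C1qa was at 24.0% of normal (95% interval 21.9 to 26.1), C1qb at 25.8% (23.8 to 28.0) and C1qc at 23.7% (21.7 to 25.7), and these intervals overlap. At 2Ws C1qa was at 82.9%, C1qb at 72.0% and C1qc at 76.1%, each with an interval below 100 but within the 2-fold limit.

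Of the 8 scavenger, lectin and complement receptors 5 were lower already at 2Ws, and they make up most of the 7 genes of that class. Marco, a scavenger receptor that binds bacteria and particles, lies on chromosome 1 from 120474538 to 120505024 and had 78.4 FPKM in the normal library, 16.9 at 2Ws and 41.8 at 3Ws. It was at 21.6% of normal at 2Ws (95% interval 19.6 to 23.7) and at 53.3% at 3Ws (49.9 to 56.9), and it was the only 1 of the 33 genes that was lower at 2Ws and not at 3Ws. Lyve1, a receptor of hyaluronan found on macrophages along vessels and on lymphatic endothelium, had 9.49 FPKM in the normal library, 1.76 at 2Ws and 2.37 at 3Ws. It was at 18.5% of normal at 2Ws (14.5 to 23.4) and at 24.9% at 3Ws (20.2 to 30.6).

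The other receptors of this kind were lower at 2Ws and lower still at 3Ws. Siglec1, a lectin that binds sialic acid, had 6.97 FPKM in the normal library, 2.06 at 2Ws and 1.07 at 3Ws. Cd163, which takes up complexes of hemoglobin and haptoglobin, had 5.56 FPKM in the normal library, 1.75 at 2Ws and 1.07 at 3Ws. At 3Ws, Siglec1 was at 15.4% of normal (95% interval 12.7 to 18.6) and Cd163 at 19.3% (15.4 to 23.9). Mrc1, the mannose receptor, had 5.03 FPKM in the normal library, 1.99 at 2Ws and 1.46 at 3Ws, or 39.6% of normal at 2Ws (33.6 to 46.5) and 29.1% at 3Ws (24.2 to 34.7).

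Vsig4, Cd5l and Cd68 were within 2-fold of normal at 2Ws. Vsig4, a receptor for the complement fragment C3b that lies on the X chromosome, had 24.2 FPKM in the normal library, 16.8 at 2Ws and 5.64 at 3Ws. Cd5l, a secreted scavenger protein of resident macrophages, had 98.2 FPKM in the normal library, 62.9 at 2Ws and 37.7 at 3Ws, so that 64.0% of normal remained at 2Ws and 38.3% at 3Ws. Cd68, a lysosomal glycoprotein of phagocytes, had 109 FPKM in the normal library, 86.1 at 2Ws and 66.4 at 3Ws and remained at 61.2% of normal at 3Ws (95% interval 57.3 to 65.4). Of the 8 scavenger, lectin and complement receptors it had the highest percentage of normal at 3Ws.

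The 2 receptor kinases for apoptotic cells had different courses. Axl had 7.19 FPKM in the normal library, 2.58 at 2Ws and 1.20 at 3Ws, or 35.9% of normal at 2Ws (95% interval 30.6 to 42.0) and 16.7% at 3Ws (13.4 to 20.6). Mertk had 3.54 FPKM in the normal library, 3.67 at 2Ws and 2.70 at 3Ws, or 103.5% of normal at 2Ws (87.0 to 123.2) and 76.3% at 3Ws (63.2 to 92.0). Mertk had the highest percentage of normal of all 33 genes at 3Ws. The intervals of the 2 genes do not overlap at either time.

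Of the 9 other macrophage genes only Cbr2 was lower at 2Ws, whereas all but Maf were lower at 3Ws. Cbr2, a carbonyl reductase, rested on few reads, 90 in the normal library, 14 at 2Ws and 30 at 3Ws, or 3.91 FPKM in the normal library, 0.637 at 2Ws and 1.32 at 3Ws. It was at 16.3% of normal at 2Ws (95% interval 8.56 to 28.8) and at 33.8% at 3Ws (21.6 to 51.6). Maf, a transcription factor of resident macrophages, had 2.25 FPKM in the normal library, 1.26 at 2Ws and 1.01 at 3Ws, and was at 56.1% of normal at 2Ws (46.3 to 67.7) and at 44.9% at 3Ws (36.6 to 54.9).

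Apoe, Adgre1, Fn1, Lyz2 and Ednrb were close to the normal level at 2Ws, at most 107% of it. Apoe, a carrier of lipids, had 266 FPKM in the normal library, 282 at 2Ws and 96.0 at 3Ws. Fn1, the matrix protein fibronectin, which monocytes and peritoneal macrophages also make, had 269 FPKM in the normal library, 270.3 at 2Ws and 97.6 at 3Ws. Adgre1, which encodes the macrophage surface protein F4/80, had 76.2 FPKM in the normal library, 81.7 at 2Ws and 33.8 at 3Ws. At 3Ws Apoe was at 36.1% of normal, Fn1 at 36.2% and Adgre1 at 44.3%. Ednrb, the endothelin receptor B, had 26.1 FPKM in the normal library, 26.1 at 2Ws and 4.61 at 3Ws, or 17.7% of normal at 3Ws (95% interval 15.7 to 19.9). Pld4, an enzyme of endolysosomes that degrades single-stranded nucleic acids, had 35.7 FPKM in the normal library, 30.1 at 2Ws and 7.48 at 3Ws and a log2 ratio of −2.11 at 3Ws.

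The lysozyme genes differed in level and at 2Ws. Lyz2, the lysozyme of macrophages and neutrophils, had 3742 FPKM in the normal library, 3787 at 2Ws and 1301 at 3Ws and was the most abundant of the 33 genes. It was at 34.8% of normal at 3Ws (95% interval 34.3 to 35.2). Lyz1 had 49.2 FPKM in the normal library, 31.0 at 2Ws and 10.2 at 3Ws, or 63.0% of normal at 2Ws (57.1 to 69.6) and 20.8% at 3Ws (17.9 to 24.1). The genes are neighbours on chromosome 10, and their longest transcripts are 96.0% identical over 1262 aligned bases with identical runs of up to 118 bases, so their reads may be shared and the values of Lyz1 are uncertain. Without Lyz2 the summed level of the other 32 genes was 2042 FPKM in the normal library, 1902 at 2Ws and 689 at 3Ws.

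Between the tumor-bearing mice 21 of the 33 genes were lower at 3Ws than at 2Ws and 1, Marco, was higher, beside 7.37% lower and 2.00% higher among 11119 genes. The genes that were lower only at 3Ws made up 20 of the 21, and Cd5l, at 59.9% of its level at 2Ws (95% interval 55.8 to 64.2), was the exception of that class. Garnl3 was the remaining gene that was lower, with 0.417 FPKM at 3Ws and 2.13 at 2Ws. Marco was at 246.9% of its level at 2Ws (223.3 to 273.2). Cbr2 at 207.7% (106.8 to 423.9) and Lyve1 at 134.5% (100.9 to 180.0) also had intervals above 100, but were within 2-fold on the log2 scale with the pseudocount. Mrc1, Cd163, Siglec1 and Axl were between 46.4% and 73.4% of their levels at 2Ws.

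The 7 genes lower already at 2Ws had a summed level of 117 FPKM in the normal library, 27.7 at 2Ws and 50.3 at 3Ws, with Marco making up most of it. Their median percentage of normal was 29.5% at 2Ws and 24.9% at 3Ws. The 21 genes lower only at 3Ws summed to 5550 FPKM in the normal library, 5566 at 2Ws and 1868 at 3Ws. Lyz2 made up most of that sum, with 3742 FPKM in the normal library, 3787 at 2Ws and 1301 at 3Ws. The median percentages of normal of the 21 genes were 90.5% at 2Ws and 24.0% at 3Ws. At 3Ws the ranges of the classes overlap, from 15.4% (Siglec1) to 53.3% (Marco) for the genes lower already at 2Ws, and from 14.2% (Timd4) to 44.4% (F5) for those lower only at 3Ws. The genes lower already at 2Ws were mostly of low abundance, with Marco as the exception at 78.4 FPKM and Lyve1 next at 9.49 FPKM in the normal library.

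Other genes of resident macrophages were taken as lists. Like the lists further below, these were chosen with earlier results of these data known, so their counts are a description. Over all genes compared, 1.22% were lower at 2Ws and 7.89% at 3Ws. Of 14 compared genes of peritoneal macrophages outside the 33, 0 were lower at 2Ws and 8 at 3Ws, with median log2 ratios of 0.13 at 2Ws and −1.13 at 3Ws. Among them Ptgis, the prostacyclin synthase, had 12.4 FPKM in the normal library, 13.2 at 2Ws and 2.03 at 3Ws, and the chemokine Ccl24 had 6.64 FPKM in the normal library, 9.01 at 2Ws and 0.904 at 3Ws. Saa3, a serum amyloid of the acute phase, had 80.2 FPKM in the normal library, 40.7 at 2Ws and 36.0 at 3Ws, with a log2 ratio of −0.96 already at 2Ws. Of 14 macrophage transcription factors 0 were lower at 2Ws, and of 13 compared at 3Ws 4 were lower, with a median log2 ratio of −0.52. Spi1, which encodes the myeloid factor PU.1, had 294 FPKM in the normal library, 271 at 2Ws and 294 at 3Ws, whereas Irf8 had 5.02 FPKM in the normal library, 4.29 at 2Ws and 1.22 at 3Ws.

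Genes of the pathways in which the 33 genes act were counted in the same way. Of 10 other complement genes compared 0 were lower at 2Ws and 3 at 3Ws, with a median log2 ratio of −0.44 at 3Ws. C4b, the component cleaved by the C1 complex, had 122 FPKM in the normal library, 127.5 at 2Ws and 32.5 at 3Ws, whereas the C5a receptor gene C5ar1 had 257 FPKM in the normal library, 256 at 2Ws and 297 at 3Ws. Of 12 genes of apoptotic cell clearance 0 were lower at 2Ws and 3 at 3Ws, with a median of −0.60 at 3Ws. Pros1, a bridging ligand of Mertk, was lower at 3Ws, with 12.4 FPKM in the normal library, 14.2 at 2Ws and 4.15 at 3Ws. Cd300lf, the most abundant of them, had 279 FPKM in the normal library, 300 at 2Ws and 512 at 3Ws, within 2-fold of normal. The whole list summed to 395 FPKM in the normal library, 405 at 2Ws and 579 at 3Ws. Of 11 other scavenger receptors and lectins 0 were lower at 2Ws, and 5 were lower and 1 higher at 3Ws. The higher gene was Cd14, a co-receptor for endotoxin, with 55.6 FPKM in the normal library, 69.3 at 2Ws and 207 at 3Ws. Of 7 genes of the CSF1 receptor axis and 6 of iron and heme recycling 0 were lower or higher at either time.

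Markers of other cells also differed between the libraries. Of 14 monocyte markers 0 were lower at 2Ws and 9 at 3Ws, with median log2 ratios of −0.25 at 2Ws and −1.27 at 3Ws. Their summed level was 778 FPKM in the normal library, 541 at 2Ws and 690.1 at 3Ws, of which Chil3, a chitinase-like protein, made up 339 FPKM in the normal library, 183 at 2Ws and 444 at 3Ws. B cell markers were lower at 3Ws for 9 of 9 genes compared, with a summed level of 214 FPKM in the normal library, 301 at 2Ws and 43.5 at 3Ws. Platelet markers were lower at 3Ws for 4 of 8 genes, with a summed level of 117 FPKM in the normal library, 138 at 2Ws and 29.7 at 3Ws. Dendritic cell markers were lower for 1 of 6 genes at 2Ws and for 3 of 6 at 3Ws, with a summed level of 60.2 FPKM in the normal library, 37.0 at 2Ws and 12.7 at 3Ws. Neutrophil markers, which the labelled cell type should carry, were lower for 1 of 12 genes at 2Ws, and for 2 of 12 at 3Ws with 3 higher. They summed to 46117 FPKM in the normal library, 50454 at 2Ws and 69514 at 3Ws, most of it from S100a8 and S100a9, whereas Camp, a cathelicidin of neutrophil granules, had 743 FPKM in the normal library, 325 at 2Ws and 222 at 3Ws. Of T and NK cell markers 0 of 3 were lower or higher at 2Ws and 0 of 2 at 3Ws, of 5 eosinophil markers 2 were higher at 2Ws and 2 lower at 3Ws, and of 4 erythroid markers 2 were lower at 2Ws and 4 higher at 3Ws. Mesothelial markers stayed below 1 FPKM in all libraries for 8 of 8 genes and endothelial markers for 9 of 10, the exception being Pecam1, which platelets and leukocytes also carry, with 4.67 FPKM in the normal library, 5.75 at 2Ws and 1.97 at 3Ws. The part of these cells in the values of the 33 genes was not tested, and in bulk samples fewer cells of a type and less RNA per cell cannot be told apart.

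**Figure D3:**
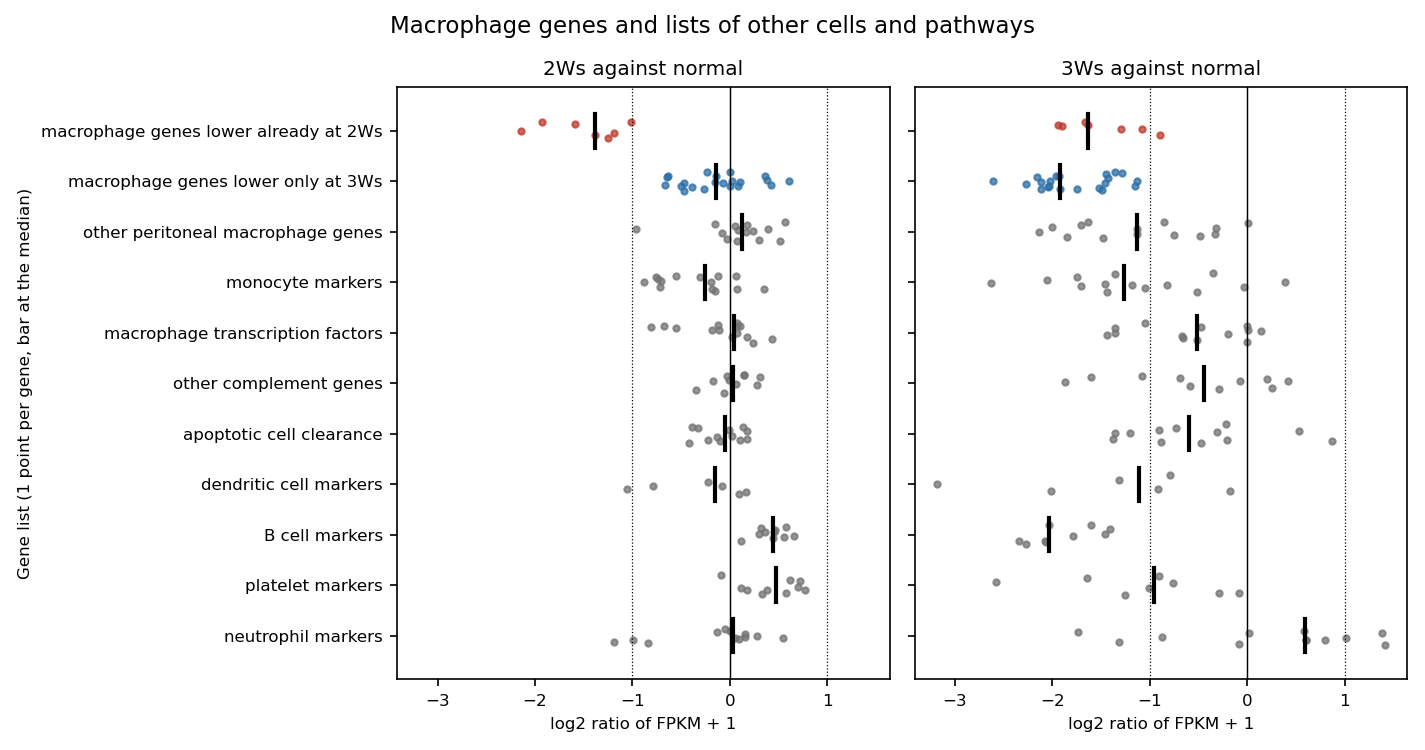
log2 ratios of FPKM + 1 at 2Ws (left) and at 3Ws (right) against the normal library, 1 point per gene, for the macrophage genes lower already at 2Ws (red), those lower only at 3Ws (blue) and lists of other cells and pathways (grey), with black bars at the medians and dotted lines at 2-fold. At 2Ws the B cell markers have a median of 0.45 and the genes lower already at 2Ws one of −1.38, whereas at 3Ws both are lower, at −2.04 for the B cell markers and −1.64 for those genes.

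Among protein-coding genes outside the lists with at least 50 reads in normal mice, the 10 with the lowest log2 ratio at 2Ws were Lars2, Ifit2, Ifit3, Ifit1bl1, Ifit1, Isg15, Retnla, Arg1, Oasl1 and Fcnb. Ifit2, Ifit3, Ifit1, Isg15 and Oasl1 are known interferon-stimulated genes. Retnla, a secreted product of alternatively activated macrophages, had 110.1 FPKM in the normal library, 42.9 at 2Ws and 16.5 at 3Ws. Fcnb, the ficolin related to Fcna, had 8.97 FPKM in the normal library, 3.43 at 2Ws and 2.01 at 3Ws. Arg1, which macrophages and G-MDSCs both use to break down arginine, had 9.12 FPKM in the normal library, 3.47 at 2Ws and 13.2 at 3Ws, so that like Marco it was lowest at 2Ws. The log2 ratios of these 10 genes at 2Ws ran from −2.28 for Lars2 to −1.17 for Fcnb. Those of Marco with −2.15, Lyve1 with −1.93, Cbr2 with −1.59, Siglec1 with −1.38, Cd163 with −1.26 and Axl with −1.19 lay within this range. Mrc1 with −1.01 lay outside it.

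The promoters of the genes were compared as sequence that the choice of genes did not use. RefSeq promoters of GRCm38.p6, 250 bases before to 50 after the start of transcription, were at hand for 23 of the 33 genes and for 27025 genes in all. The half-site TGCTGAG of the Maf family was found on either strand in 6 of 23 genes (26.1%), namely C1qb, Cd5l, Cxcl13, Fcna, Garnl3 and Timd4, and in 8.93% of all genes. It was present in 5 of 14 genes lower only at 3Ws and in 0 of 5 genes lower already at 2Ws. At a share of 8.93% over all genes, 0 matches among 5 genes is near the background. The other half-site, TGCTGAC, was found in 4 of 23 genes (17.4%), namely Cbr2, Fcna, Garnl3 and Timd4, and in 5.28% of all genes. It was present in 2 of 14 genes lower only at 3Ws and in 1 of 5 genes lower already at 2Ws. In Fcna, Garnl3 and Timd4, which hold both, the half-sites do not overlap. The GATA motif AGATAA was found in Serpinb2 and in 12.7% of all genes, and TGATAA in Cd5l and Lyz1 and in 10.4% of all genes. GAGGAAGT, a PU.1 motif, was found in C1qc and Pld4 and in 3.69% of all genes. An interferon response motif, GAAA followed after any pair of bases by GAAA, was found in 0 of the 23 genes and in 3.99% of all genes. With so small a share over all genes, 0 matches among 23 genes is near the background. Siglec1 and Lyve1, lower already at 2Ws, were not among the 23 genes. A match describes the letters of the window and is not a bound site.

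The 100 bases before the start, taken where RefSeq and GENCODE differ from the more upstream of their starts, are shown for 3 genes that were lower only at 3Ws and hold a Maf half-site there, and for 3 receptor genes that were lower already at 2Ws and hold none of the motifs in the whole window. The genes shown were picked for this contrast, and Cbr2, also lower already at 2Ws, holds TGCTGAC. Each sequence runs 5′ to 3′ on the strand of its gene, and capitals mark a TGCTGAC or TGCTGAG half-site or its reverse complement.
Timd4, chr11:46810699-46810798, plus strand: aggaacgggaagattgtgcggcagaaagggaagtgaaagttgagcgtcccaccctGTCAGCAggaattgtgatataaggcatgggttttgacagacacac
Fcna, chr2:25628031-25628130, minus strand: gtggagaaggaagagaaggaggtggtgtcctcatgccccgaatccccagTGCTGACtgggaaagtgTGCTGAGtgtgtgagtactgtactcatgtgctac
Cd5l, chr3:87357781-87357880, plus strand: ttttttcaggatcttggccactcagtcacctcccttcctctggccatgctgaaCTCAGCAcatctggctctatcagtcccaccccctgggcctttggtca
Cd163, chr6:124304551-124304650, plus strand: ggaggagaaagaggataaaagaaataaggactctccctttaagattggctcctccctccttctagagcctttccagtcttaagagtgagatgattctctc
Mrc1, chr2:14229292-14229391, plus strand: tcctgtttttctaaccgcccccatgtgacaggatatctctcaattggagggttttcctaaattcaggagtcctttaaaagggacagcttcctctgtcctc
Marco, chr1:120505025-120505124, minus strand: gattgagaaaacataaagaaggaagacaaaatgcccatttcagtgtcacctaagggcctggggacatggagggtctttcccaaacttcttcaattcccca
Fcna holds both half-sites within these bases, whereas Timd4 and Cd5l hold 1 each on the opposite strand. At 3Ws Timd4 was at 14.2% of normal, Fcna at 21.2% and Cd5l at 38.3%. At 2Ws Cd163 was at 31.4%, Mrc1 at 39.6% and Marco at 21.6%.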

How the data were processed

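Blood G-MDSCs of tumor-bearing mice (2Ws and 3Ws) and of normal mice were sequenced as 1 library per condition. Per the labels and methods, the authors aligned reads to GRCm38 with HISAT2 2.1.0 and an index from Bowtie2 2.2.3 and deposited FPKM per Ensembl gene. Which annotation release was counted, and whether by strand, is not given in the sources used here. Of 26655 genes, 26588 were named, placed and given exon lengths through GENCODE M21, and 67 were not. Reads per gene, taken as FPKM by exon length by library total, came out whole, to within 0.001, in all libraries for 20743 of 23378 genes above 0 (88.7%). The 1-library design gives no model between conditions. Genes reaching 1 FPKM in each of 2 libraries had a median log2 ratio of −0.18 for 3Ws against normal, of −0.16 for 3Ws against 2Ws and of −0.00 for 2Ws against normal, a shift that bears on every value at 3Ws. The members and all lists were chosen with earlier results of these data known. All 33 genes are described, with at most 4 genes per other list (the 2 highest in FPKM and the 2 with the largest ratio among those reaching 5 FPKM), plus the 10 lowest outside the lists at 2Ws. Klf4 and Irf8, among others, are counted both as monocyte markers and as transcription factors. Promoters come from RefSeq. Alternatives were pseudocounts of 0.1 and 0.5, no filter or 5 FPKM, 1.5-fold and 4-fold rules, centring on the median, values relative to Actb, and an exact binomial test on recovered reads. Python 3.11.15, numpy 2.4.6, pandas 2.3.3, scipy 1.17.1, Biopython 1.88 and matplotlib 3.10.9 were used, and the steps were tested on simulated data.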

Additional observations from a re-analysis of the deposited data

Results flagged for a closer look

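Of the 33 genes, 8 had intervals above the normal library at 2Ws and below it at 3Ws, so that the 2 tumor times lay on opposite sides of normal. The percentages of normal at 2Ws were 156.5% for Cxcl13, 134.4% for F5, 130.7% for Prg4, 128.6% for Alox15, 127.6% for Garnl3, 107.3% for Adgre1, 106.3% for Apoe and 101.2% for Lyz2. Of these, 5 are peritoneal macrophage genes, and all 8 were within 2-fold of normal at 2Ws. The difference between the times in direction was not tested beyond these counting intervals, because each time has 1 library. Over all genes compared, 49.9% were below normal at 2Ws and 70.2% at 3Ws by the ratio alone. How many of all genes lay on opposite sides was not counted. Many reads make an interval narrow, as for Lyz2 at 2Ws (100.2 to 102.2, from 82481 reads). Tumor time and sex of the animals cannot be told apart at 2Ws.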

How the results depend on the processing

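None of the 33 genes that was counted as lower against normal changed direction under the alternatives run. The log2 ratio of Gata6 at 2Ws, −0.07 as reported and not counted, was 0.0011 relative to Actb. Under the 4-fold rule 1 gene (Marco) was lower at 2Ws against normal, 8 were lower at 3Ws against normal, 8 were lower only at 3Ws, and 4 were lower at 3Ws against 2Ws. Under all other alternatives these counts ran over 6 to 10, 24 to 32, 19 to 24 and 19 to 24 genes. Relative to Actb, Mrc1 left the genes lower already at 2Ws. Centred on the median, F5 and Adgre1 left those lower only at 3Ws. With a filter of 5 FPKM, Gata6 and Cbr2 left their classes. With 1.5-fold, Fcna, Cd5l and Lyz1 joined the genes lower already at 2Ws, and with a pseudocount of 0.1, Garnl3, Naip1 and Maf joined those lower only at 3Ws.

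Over all genes, the lower and higher counts at 2Ws against normal were 137 and 145. They were 263 and 275 with a pseudocount of 0.1, 45 and 40 with 5 FPKM, 374 and 396 with 1.5-fold, 15 and 12 with 4-fold, and 51 and 37 with the binomial test. At 3Ws against normal 876 and 289 genes were counted. A pseudocount of 0.1 gave 1943 and 459, one of 0.5 gave 1371 and 374, 5 FPKM gave 499 and 180, 1.5-fold 2622 and 714, 4-fold 66 and 39, and centring 553 and 416, which raised the share of higher genes to 42.9%, against 24.8% as reported. For 3Ws against 2Ws the counts were 820 and 222, with 1763 and 357 for a pseudocount of 0.1, 1249 and 282 for 0.5, 431 and 137 for 5 FPKM, 2307 and 565 for 1.5-fold, 92 and 28 for 4-fold, and 554 and 301 after centring, when 35.2% of the counted genes were higher, against 21.3%. No paired analysis was possible because each condition has 1 library, and for the same reason no library could be left out. Depth limits the values of Cbr2 (14 reads at 2Ws), Cxcl13 (46 reads at 3Ws) and Gata6 (59 reads at 3Ws), which have the fewest reads in a library.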
